A study of Mus musculus with 12 samples.

Results

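Genes used by the endothelial cells of brain blood vessels were followed through RNA sequencing libraries of sorted mouse hypothalamic cells. The members were 10 gene symbols taken by name from the count tables, Cldn5, Cdh5, Pecam1, Emcn, Ly6c1, Flt1, Kdr, Tek, Slco1c1 and Bsg, of 55809 symbols in all. They and the gene lists below were chosen with earlier results of these data known, so their shares beside those of all genes are description only. There were 12 libraries in 4 groups of 3. The first pair of groups came from the hypothalamus of untreated Mc4r-Cre; Ai14 mice, 4 weeks old, sorted as TOM positive cells and TOM negative cells. In these mice Cre is driven by the gene of the melanocortin 4 receptor and switches on the red reporter tdTomato (TOM) of the Ai14 allele, so a cell that used Mc4r at any earlier time stays TOM positive. The second pair came from the paraventricular hypothalamic nucleus (PVH) of 26-week-old mice of the genotype Otp fl/fl; Ai14, taken when 12 weeks had passed since an injected adeno-associated virus (AAV). After AAV-Cre the TOM positive cells were sorted; this virus deletes floxed Otp and turns on TOM. After AAV-GFP the GFP positive cells were sorted. Both groups carried the floxed Otp alleles and Ai14. The AAV groups were therefore sorted on different fluorescent proteins, and the promoter in the viruses is not given in the sources used here. The series set out to find regulators of Mc4r in the first pair and the effect of Otp loss on PVH neurons in the second. Vascular cells were not a target of either sort.

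Endothelial cells line the vessels and, in the brain, form the blood-brain barrier. Tight junctions and adherens junctions close the gaps between them, so most nutrients and hormones cross through transporters in the cell membrane. Their growth and upkeep are steered by vascular endothelial growth factor (VEGF) and the angiopoietins through receptor tyrosine kinases on their surface. Of the 10 members, Bsg is widely used outside the endothelium, Slco1c1 is also made by astrocytes, and the others are used in the brain mainly by vessel cells or, for some, also by blood cells.

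The stretches of DNA just before the transcription start are shown for members of each role, a junction gene, a surface gene, a VEGF receptor and a transporter, because these genes are compared as a group below. Each sequence holds the 250 bases upstream of the RefSeq start on the gene's own strand, from the GRCm38.p6 build. Capitals mark AGGAAG or its reverse complement CTTCCT, a form of the site bound by ETS transcription factors, a family that includes the endothelial factors Erg and Fli1. The windows are chr16:18776597-18776846 on the plus strand for Cldn5, chr3:137340828-137341077 on the plus strand for Emcn, chr5:147726012-147726261 on the minus strand for Flt1 and chr6:141524104-141524353 on the plus strand for Slco1c1.
Cldn5: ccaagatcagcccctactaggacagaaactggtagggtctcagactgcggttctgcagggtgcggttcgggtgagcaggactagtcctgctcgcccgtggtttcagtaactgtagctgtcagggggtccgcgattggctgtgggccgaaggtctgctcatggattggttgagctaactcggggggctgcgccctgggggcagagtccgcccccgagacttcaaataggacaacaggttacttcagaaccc
Emcn: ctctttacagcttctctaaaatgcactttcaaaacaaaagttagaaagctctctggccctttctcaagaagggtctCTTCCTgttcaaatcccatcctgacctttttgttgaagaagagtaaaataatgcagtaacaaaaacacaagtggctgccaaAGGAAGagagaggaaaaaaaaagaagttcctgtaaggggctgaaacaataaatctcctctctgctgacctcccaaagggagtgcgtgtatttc
Flt1: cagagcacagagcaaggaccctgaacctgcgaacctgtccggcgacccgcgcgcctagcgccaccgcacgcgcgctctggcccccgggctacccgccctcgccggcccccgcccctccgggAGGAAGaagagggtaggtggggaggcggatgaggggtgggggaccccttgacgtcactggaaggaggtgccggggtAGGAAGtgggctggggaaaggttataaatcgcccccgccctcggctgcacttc
Slco1c1: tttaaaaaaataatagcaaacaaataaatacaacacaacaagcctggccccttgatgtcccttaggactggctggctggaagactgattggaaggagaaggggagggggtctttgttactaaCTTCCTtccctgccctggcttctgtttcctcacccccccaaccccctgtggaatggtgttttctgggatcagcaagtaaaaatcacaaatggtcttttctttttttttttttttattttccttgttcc
RefSeq promoters were matched by symbol for 7 of the 10 members, all but Pecam1, Cdh5 and Bsg, in 8 windows, since Ly6c1 has 2 starts. AGGAAG on either strand stood in 4 of the 8 windows, those of Emcn, Flt1, Slco1c1 and 1 of the 2 of Ly6c1, and in 29.5% of 32851 mouse promoters of the same length. CGGAAG on either strand, another ETS form, stood in 0 of 8 and in 13.6% of all promoters. ACAATG on either strand, a form of the SOX site, stood in 0 of 8 and in 10.7% of all promoters. TATAAA on the gene's own strand stood in 2 of 8, of Flt1 and Ly6c1, and in 7.59% of all promoters. The windows also differed in base composition, from 40.8% G and C in Emcn to 70.4% in Flt1, against a median of 52.4% over all promoters. A match describes letters in a window and is not evidence of binding.

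Library totals ran from 13506018 to 27827853 counts. Genes with a count numbered 16011 to 18160 in the TOM positive libraries and 18453 to 19023 in the TOM negative ones, and 14747 to 16988 in the AAV-Cre libraries and 20778 to 23902 in the AAV-GFP ones. No label ties the replicates to separate animals, so every p-value below speaks of the spread among libraries of a group, and that spread may be technical. The target genes were low. Counts of Otp were 36, 27 and 1 for TOM positive replicates 1, 2 and 3, against 0 throughout the TOM negative group. AAV-Cre libraries held 12, 9 and 10 Otp counts, against 91, 102 and 38 for AAV-GFP. Counts of Mc4r were 63, 0 and 0 for TOM positive cells, against 0 throughout the TOM negative group. AAV-Cre libraries held no Mc4r count, against 22, 11 and 13 for AAV-GFP. TOM positive replicate 2 stood apart for the vessel genes, with 7 of the 10 members at 0 counts (Cldn5, Pecam1, Flt1, Kdr, Tek, Cdh5 and Emcn) in a library of 26693043 counts. TOM positive replicate 1 had 1 member at 0 and replicate 3 had none. AAV-Cre replicates 1, 2 and 3 had 6, 4 and 2 members at 0, and no TOM negative or AAV-GFP library had any.

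**Figure D1:**
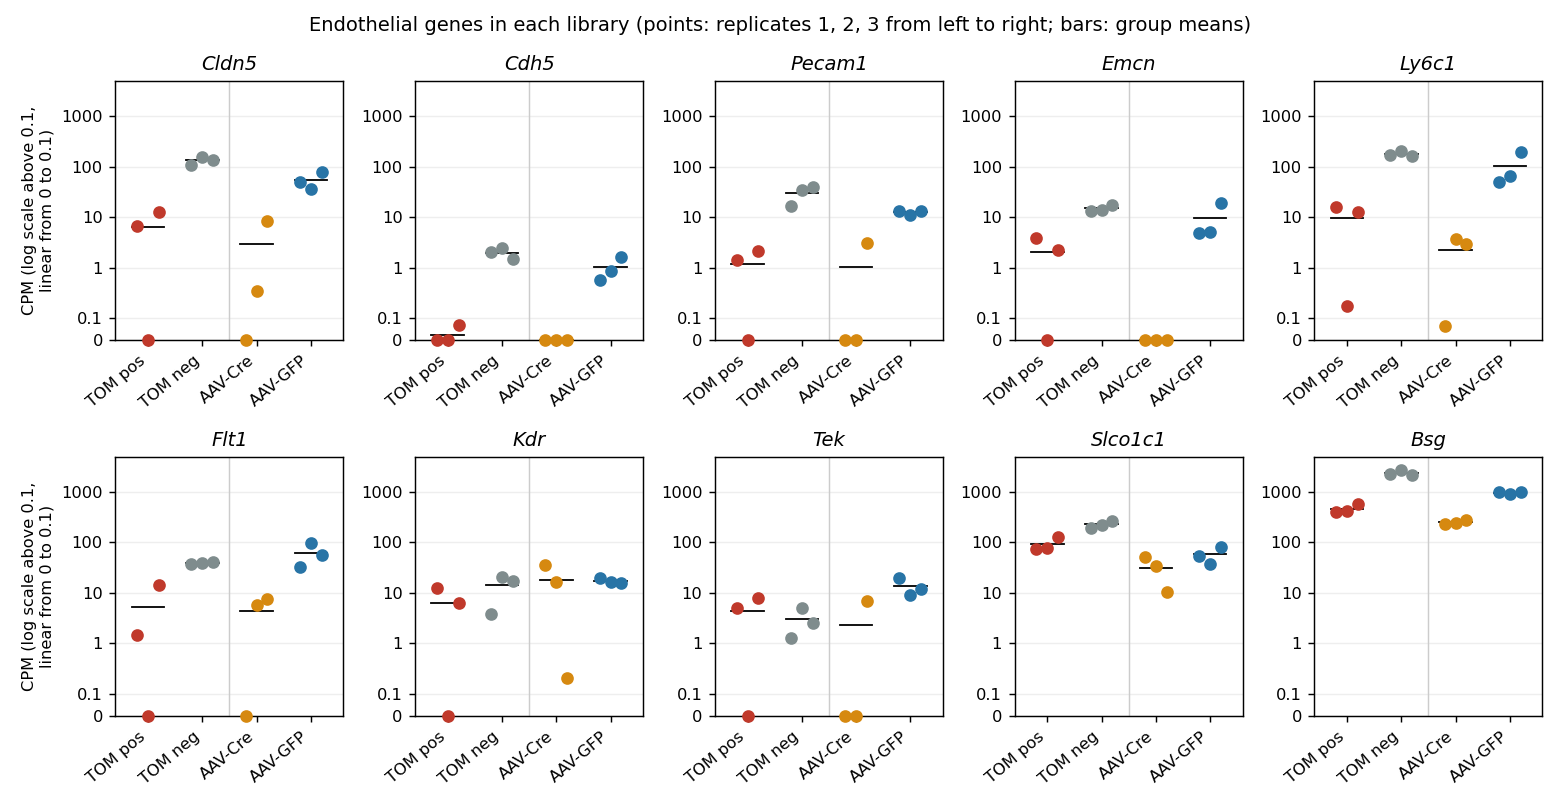
CPM of each of the 10 endothelial genes in each library, on a log axis above 0.1 CPM that is linear down to 0. Points are replicates 1, 2 and 3 of a group and bars are group means. In 8 genes every TOM positive point lies below every TOM negative point, and in Kdr and Tek the groups overlap.

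TOM positive cells held less mRNA of most endothelial genes than TOM negative cells. In edgeR's quasi-likelihood test over all 15228 genes tested, 6 of the 10 members were lower in TOM positive cells and 0 were higher. The lower ones were the junction genes Cldn5, Cdh5 and Pecam1, the surface gene Ly6c1 and the transport genes Slco1c1 and Bsg. Of these, Cdh5 had 2 counts over the TOM positive libraries and was tested through TOM negative cells alone. Of all genes tested, 13.4% were lower and 10.4% higher by the same test, and 23.9% passed in either direction. Without TOM positive replicate 2, 7 members were lower, with Emcn as the added gene. The count was 4 without TOM positive replicate 3, 2 without TOM positive replicate 1, 2 when TOM negative replicate 1 or 3 was left out, and 1 when TOM negative replicate 2 was. The groups did not overlap, with TOM positive cells lower, for 8 of the 10 members and for 25.6% of all genes tested. They stood apart the other way for 0 of 10 members and 20.8% of all genes. The median log2 fold change was -2.89 over the 10 members and -0.02 over all genes. In such bulk libraries, fewer cells of a type and less RNA per cell cannot be told apart. CPM below are read counts in proportion to the TMM-scaled library total, given for replicates 1, 2 and 3, and means are ± SD over 3 libraries.

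Cldn5 encodes claudin-5, the main claudin of tight junctions at the blood-brain barrier (chromosome 16, 18595597 to 18597012, plus strand, in the annotation of the files). It had 6.62, 0 and 12.8 CPM in TOM positive cells, against 108, 155 and 139 CPM in TOM negative cells. The lowest TOM negative library thus lay far above the highest TOM positive one. The log2 fold change was -4.37 ± 1.26 (SE, edgeR adjusted p = 0.0438). Cdh5 encodes VE-cadherin, which holds endothelial adherens junctions together (chromosome 8, 104828257 to 104871143, plus strand). It had 0, 0 and 2 counts in TOM positive cells, against 40, 51 and 32 counts in TOM negative cells. The ratio of summed counts, TOM negative over TOM positive and scaled to library totals, was 77.8, with an exact 95% interval of 21.1 to 650 that covers counting error only (edgeR adjusted p = 0.0204). Cdh5 reached the count filter through TOM negative cells alone. Pecam1 encodes CD31, an adhesion molecule of endothelial cells, platelets and leukocytes (chromosome 11, 106545043 to 106641454, minus strand). It had 1.44, 0 and 2.10 CPM in TOM positive cells, against 16.4, 34.7 and 39.1 CPM in TOM negative cells. Its log2 fold change was -4.67 ± 1.26 (edgeR adjusted p = 0.0342), and the groups did not overlap. The calls of all 3 junction genes turned on single libraries. Cldn5 and Pecam1 kept the call when TOM positive replicate 2 was left out, with edgeR adjusted p = 0.00152 and 0.00481, and lost it without any other library (adjusted p of 0.0569 to 0.129 and 0.0553 to 0.113). Cdh5 kept it without TOM positive replicate 2 or 3 (edgeR adjusted p = 0.0472 and 0.0297) and lost it without any of the other libraries (0.0592 to 0.0848). Without TOM positive replicate 3, Cdh5 had no count left in TOM positive cells. The fold change stayed below 0 in each of these fits. It ran from -5.38 without TOM positive replicate 3 to -3.78 without replicate 2 for Cldn5, and from -5.44 to -4.08 without those libraries for Pecam1. With library totals and no scaling factors, Cldn5 also lost the call (adjusted p = 0.0546). Cdh5 lost it without a count filter (edgeR adjusted p = 0.0578). With a replicate block, Cldn5, Pecam1 and Cdh5 all lost it (edgeR adjusted p = 0.0893, 0.0846 and 0.0838).

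Emcn encodes endomucin, a sialomucin of venous and capillary endothelium (chromosome 3, 137046828 to 137137946, plus strand). It had 3.85, 0 and 2.20 CPM in TOM positive cells, against 13.4, 14.1 and 17.1 CPM in TOM negative cells. The groups did not overlap, but the log2 fold change of -2.89 ± 1.35 did not pass (edgeR adjusted p = 0.172). Emcn passed in 2 of 12 alternatives, edgeR without TOM positive replicate 2, at -2.30 (adjusted p = 0.0236), and DESeq2 (0.0452). Ly6c1 encodes a small lipid-anchored surface protein abundant on mouse brain endothelium (chromosome 15, 74915867 to 74920679, minus strand). It had 16.0, 0.170 and 12.4 CPM in TOM positive cells, against 168, 208 and 162 CPM in TOM negative cells. All TOM negative libraries were far higher than any TOM positive one, and the log2 fold change was -4.25 ± 1.12 (edgeR adjusted p = 0.0319). The call held without TOM positive replicate 2 (-3.67, adjusted p = 0.000425) and was lost without any other library (0.0633 to 0.0989). It was also lost with a replicate block (edgeR adjusted p = 0.0754). Ly6c1 lies among close relatives, and 32.8% of the 1764 distinct 50-base stretches of its transcripts also occur in other genes, mainly Ly6c2 and Ly6a. Its counts are uncertain to that extent, since the authors' counting of reads that map to several places is given for the AAV libraries alone. The relatives stood in the same order. Ly6c2, a monocyte gene, was at 0 in all TOM positive libraries, against 91, 156 and 138 counts in TOM negative cells. Among the genes tested, which had passed the count filter, 2% had 0 counts in all 3 TOM positive libraries and 0.164% in all 3 TOM negative ones. Ly6c2 was at least 162-fold lower, a bound against 3 counts over the group that fell to 101 without TOM positive replicate 3. Ly6a, which encodes Sca-1, averaged 3.77 ± 4.07 CPM in TOM positive cells and 91.8 ± 19.6 CPM in TOM negative cells. Its log2 fold change was -4.60 ± 1.25 (edgeR adjusted p = 0.0353, passing in 2 of 6 fits with 1 library left out).

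None of the 3 receptor tyrosine kinases passed the test. Flt1 encodes VEGF receptor 1, which binds VEGF-A tightly and limits its action (chromosome 5, 147498414 to 147662821, minus strand). It had 1.44, 0 and 14.2 CPM in TOM positive cells, against 37.8, 38.5 and 40.9 CPM in TOM negative cells. The TOM negative libraries were close together, while TOM positive replicate 3 was about an order of magnitude above replicate 1. The log2 fold change was -2.90 ± 1.46 (edgeR adjusted p = 0.203). Without TOM positive replicate 3, Flt1 passed, at -5.83 (adjusted p = 0.0384). Kdr encodes VEGF receptor 2, the main signalling receptor for VEGF-A (chromosome 5, 76093487 to 76139118, minus strand). It had 12.3, 0 and 6.16 CPM in TOM positive cells, against 3.87, 21.0 and 17.2 CPM in TOM negative cells. These groups overlapped, and the log2 fold change was -1.19 ± 1.50 (edgeR adjusted p = 0.618). Tek encodes TIE2, the receptor of the angiopoietins (chromosome 4, 94627526 to 94763213, plus strand). It had 4.98, 0 and 8.05 CPM in TOM positive cells, against 1.26, 5.08 and 2.57 CPM in TOM negative cells. The groups overlapped here too, with 1 TOM positive library above all TOM negative ones and 1 at 0. The log2 fold change of Tek was 0.55 ± 1.58 (edgeR adjusted p = 0.840), and -0.26 without TOM positive replicate 3.

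Both transport genes were counted in every library. Slco1c1 encodes OATP1C1, a carrier of thyroxine at the blood-brain barrier and in astrocytes (chromosome 6, 141470094 to 141515903, plus strand). It had 75.0, 76.8 and 128 CPM in TOM positive cells, against 197, 218 and 272 CPM in TOM negative cells. The groups did not overlap, and the log2 fold change of -1.29 ± 0.26 (edgeR adjusted p = 0.0120) was the smallest in size among the 6 called members. It lost the call without TOM negative replicate 2 (adjusted p = 0.0520). Bsg encodes basigin or CD147, the chaperone that brings monocarboxylate transporters to the cell surface (chromosome 10, 79540325 to 79547803, plus strand). It had 410, 424 and 566 CPM in TOM positive cells, against 2250, 2675 and 2192 CPM in TOM negative cells. The log2 fold change was -2.35 ± 0.18 (edgeR adjusted p = 0.000310), and Bsg kept the call whichever of the 6 libraries was left out. Unlike the junction genes, Slco1c1 and Bsg kept much of their level in TOM positive replicate 2, where 76.8 and 424 CPM remained. The other 8 members summed to 46.6, 0.170 and 58.0 CPM in TOM positive replicates 1, 2 and 3, against 351, 479 and 419 CPM in TOM negative cells.

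**Figure D2:**
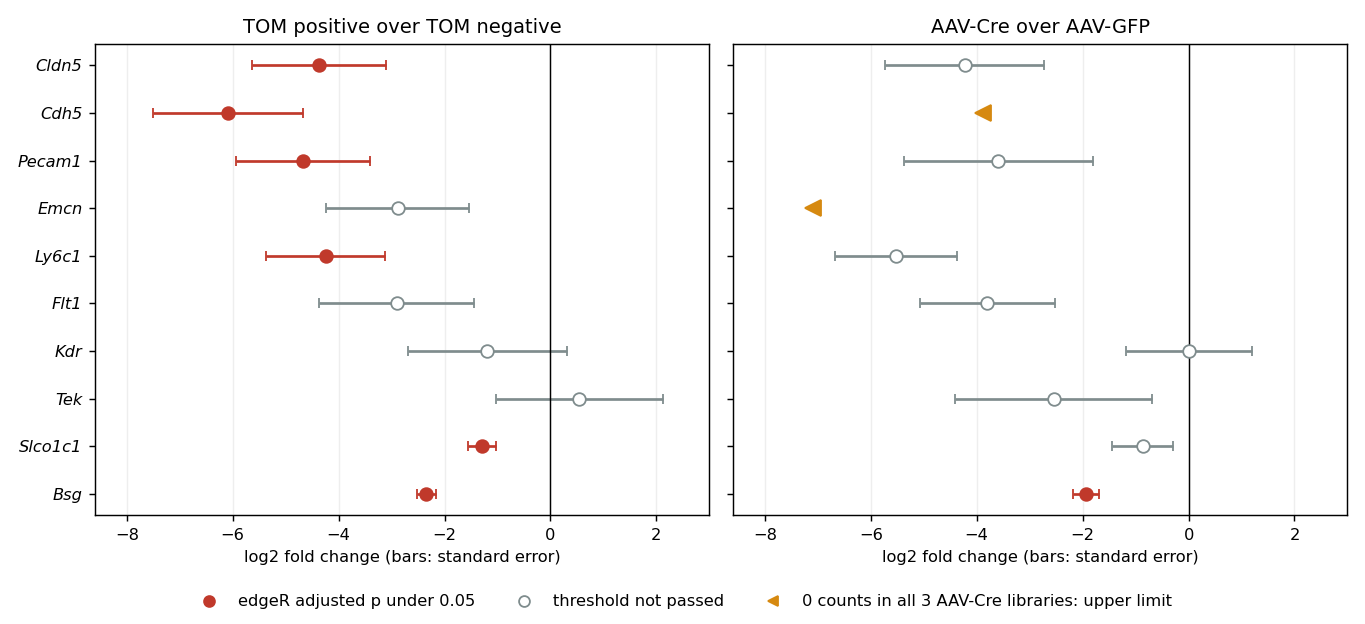
Log2 fold change of each member with its standard error, TOM positive over TOM negative on the left and AAV-Cre over AAV-GFP on the right. Filled points passed the edgeR threshold, and triangles mark genes at 0 counts in all AAV-Cre libraries, placed at the bound that 3 counts allow. Of these 2, Emcn passed and Cdh5 was not tested.

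The second comparison set TOM positive PVH cells after AAV-Cre against GFP positive PVH cells after AAV-GFP. The fold change lay below 0 for 8 of the 9 members tested, but only Emcn and Bsg passed, so 2 of 9 were lower after AAV-Cre and 0 were higher. Emcn had 0 counts in all AAV-Cre libraries, so it was tested through the AAV-GFP libraries alone and had to differ to be tested. Cdh5 was too low for the count filter. Of 15408 genes tested, 1.97% were lower and 0.63% higher by the same test, and 2.6% passed in either direction. The groups did not overlap, with AAV-Cre lower, for 7 of the 9 members tested and for 18.6% of all genes tested, and the other way for 0 of 9 and 9.85%. The median log2 fold change was -3.60 over the 9 tested members and -0.16 over all genes. At an unadjusted p under 0.05 there were 5 members. The count of members passing was 3 without AAV-Cre replicate 1, 4 without AAV-Cre replicate 3, and 0 in edgeR without AAV-Cre replicate 2 or any 1 of the AAV-GFP libraries, where 4 to 6 had an unadjusted p under 0.05. DESeq2 on all 6 libraries called 4, Flt1, Ly6c1, Emcn and Bsg.

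Among the junction genes, Cldn5 had 0, 0.339 and 8.45 CPM after AAV-Cre, against 49.1, 36.9 and 78.8 CPM after AAV-GFP. Pecam1 had 0, 0 and 3.09 CPM after AAV-Cre, against 13.1, 11.1 and 13.4 CPM after AAV-GFP. In both genes the AAV-Cre signal came almost wholly from replicate 3, and the groups did not overlap. The log2 fold changes were -4.23 ± 1.50 for Cldn5 and -3.60 ± 1.79 for Pecam1, and neither passed (edgeR adjusted p = 0.185 and 0.332). Without AAV-Cre replicate 3 both passed (edgeR adjusted p = 0.0382 for Cldn5 and 0.0387 for Pecam1). Pecam1 was then at 0 in the AAV-Cre libraries kept, and Cldn5 had 0 and 5 counts there. Both were tested in that fit through the AAV-GFP libraries alone, so no fold change is given for it. Cdh5 was at 0 in all AAV-Cre libraries, against 11, 12 and 23 counts after AAV-GFP. It was at least 14.7-fold lower, a bound of 9.49 without AAV-Cre replicate 1.

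Of the surface genes, Emcn was not counted in any AAV-Cre library (0, 0 and 0), against 94, 69 and 267 counts after AAV-GFP. It was at least 137-fold lower (edgeR adjusted p = 0.0434), and the bound was 74.3 without AAV-GFP replicate 3. Emcn passed the count filter through the AAV-GFP libraries alone, and the call was lost in each of the 6 fits with 1 library left out (adjusted p of 0.0504 to 0.180). Among all genes tested, 2.78% had 0 counts in all 3 AAV-Cre libraries and 0% in all 3 AAV-GFP libraries. Ly6c1 had 0.0623, 3.73 and 2.89 CPM after AAV-Cre, against 49.6, 64.0 and 196 CPM after AAV-GFP. The gap between the groups was wide, and the log2 fold change of -5.53 ± 1.15 just missed the threshold (edgeR adjusted p = 0.0513). Ly6c1 passed in 3 of 12 alternatives. These were edgeR without AAV-Cre replicate 1 (0.0369) or without a count filter (0.00244), and DESeq2 (2.89e-07). Ly6a averaged 6.44 ± 4.95 CPM after AAV-Cre and 67.3 ± 49.2 CPM after AAV-GFP, with a log2 fold change of -3.38 ± 0.86 that did not pass (edgeR adjusted p = 0.0758). Ly6c2 was at 0 in all AAV-Cre libraries and had 0, 3 and 9 counts after AAV-GFP.

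The receptors did not pass. Flt1 had 0, 5.83 and 7.49 CPM after AAV-Cre, against 32.5, 97.8 and 55.7 CPM after AAV-GFP, with no overlap between the groups. The log2 fold change was -3.80 ± 1.27 (edgeR adjusted p = 0.162). Flt1 passed in 2 of 12 alternatives, edgeR without AAV-Cre replicate 1 (0.0488) and DESeq2 (0.0115). Kdr had 36.4, 16.1 and 0.206 CPM after AAV-Cre, against 19.8, 16.5 and 16.0 CPM after AAV-GFP. Its highest and its lowest value both came from AAV-Cre libraries. The log2 fold change was 0.01 ± 1.19 (edgeR adjusted p = 0.997), and it was -1.10 without AAV-Cre replicate 1 and 0.58 without replicate 3. Tek had 0, 0 and 6.94 CPM after AAV-Cre, against 19.8, 9.20 and 11.7 CPM after AAV-GFP. The groups did not overlap, and the log2 fold change was -2.55 ± 1.86 (edgeR adjusted p = 0.526). Tek passed without AAV-Cre replicate 3, the only AAV-Cre library that held it (edgeR adjusted p = 0.0418). It was then at 0 in the AAV-Cre group and tested through the AAV-GFP libraries alone, so that fit measured no fold change.

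Slco1c1 had 50.9, 34.1 and 10.2 CPM after AAV-Cre, against 53.8, 37.4 and 82.8 CPM after AAV-GFP. The groups overlapped, and the log2 fold change was -0.87 ± 0.58 (edgeR adjusted p = 0.484). Bsg had 234, 245 and 275 CPM after AAV-Cre, against 1008, 893 and 983 CPM after AAV-GFP. Replicates of each group were close together, and the log2 fold change was -1.94 ± 0.24 (edgeR adjusted p = 0.0202). Bsg kept the call without AAV-Cre replicate 1 or 3 (adjusted p = 0.0471 and 0.0485) and lost it without any of the other 4 libraries (0.0582 to 0.125). The 8 members other than Slco1c1 and Bsg summed to 36.5, 26.0 and 29.1 CPM after AAV-Cre, against 189, 241 and 391 CPM after AAV-GFP. The similar AAV-Cre sums had different makeup, since replicate 1 held almost only Kdr and replicate 3 almost no Kdr.

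Levels can be compared between genes only per transcript length, and TPM were computed for this from the counts and the gene lengths in the files. In TOM positive cells Bsg was highest, at 959 ± 171 TPM (SD, n = 3), followed by Slco1c1 at 67.1 ± 21.3 TPM. Below them came Ly6c1 at 21.4 ± 18.7, Cldn5 at 17.1 ± 16.8, Tek at 3.46 ± 3.21, Kdr at 2.58 ± 2.61, Flt1 at 1.43 ± 2.14, Emcn at 1.41 ± 1.36, Pecam1 at 0.709 ± 0.641 and Cdh5 at 0.0196 ± 0.0339 TPM. From Ly6c1 down, each neighbour in this order overlapped the next over the libraries. Among TOM negative cells Bsg was also highest, at 3139 ± 277 TPM, but Ly6c1 at 257 ± 28.0 and Cldn5 at 228 ± 46.2 TPM stood above Slco1c1 at 107 ± 26.8 TPM. Pecam1 at 11.8 ± 5.31, Flt1 at 6.98 ± 0.850 and Emcn at 6.67 ± 1.45 TPM overlapped one another in turn, as did Kdr at 3.78 ± 2.43, Tek at 1.51 ± 0.939 and Cdh5 at 1.12 ± 0.219 TPM below them.

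After AAV-Cre, Bsg averaged 486 ± 50.2 TPM and was again apart from the rest. Slco1c1 at 21.4 ± 14.0, Cldn5 at 7.41 ± 12.1, Kdr at 6.84 ± 7.21, Ly6c1 at 4.60 ± 3.92, Tek at 1.76 ± 3.05, Flt1 at 1.15 ± 1.03 and Pecam1 at 0.594 ± 1.03 TPM followed, each overlapping the next, and Emcn and Cdh5 were at 0. After AAV-GFP, Bsg stood at 1481 ± 225 TPM, with Ly6c1 at 158 ± 95.5 and Cldn5 at 104 ± 23.8 TPM next and overlapping. Slco1c1 at 30.1 ± 7.32, Flt1 at 13 ± 8.08, Tek at 8.14 ± 3.99, Pecam1 at 5.60 ± 0.755, Kdr at 5.45 ± 1.32 and Emcn at 4.51 ± 2.99 TPM came next, each overlapping its neighbour. Cdh5 was lowest in that group, at 0.643 ± 0.235 TPM, apart from Emcn. Ly6c1 and Cldn5 thus exceeded Slco1c1 in every TOM negative and every AAV-GFP library. Slco1c1 exceeded both in every TOM positive library.

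The members did not keep fixed proportions to one another. Counts of Kdr, Tek, Pecam1, Flt1 and Ly6c1 were set beside those of Cldn5 within a library, as a share of the pair's sum, for pairs with at least 100 counts. Exact 95% binomial intervals are given and cover counting error only. Kdr made up 65.0% (59.9 to 69.9) of its pair with Cldn5 in TOM positive replicate 1 and 32.5% (28.6 to 36.5) in replicate 3, against 3.47%, 11.9% and 11.0% in TOM negative replicates 1, 2 and 3. In AAV-Cre replicates 1, 2 and 3 the share of Kdr was 100% (99.4 to 100), 97.9% (95.3 to 99.3) and 2.38% (0.494 to 6.80), against 28.8%, 30.9% and 16.9% after AAV-GFP. Kdr and Cldn5 thus came from different AAV-Cre libraries. Tek made up 42.9% and 38.6% of its pair in TOM positive replicates 1 and 3, against 1.15% to 3.18% in TOM negative cells. In AAV-Cre replicate 3 the share of Tek was 45.1%, against 12.9% to 28.7% after AAV-GFP. The share of Pecam1 moved less. It was 17.8% and 14.1% in TOM positive replicates 1 and 3 and 13.2% to 22.0% in TOM negative cells, and 26.8% in AAV-Cre replicate 3 and 14.5% to 23.1% after AAV-GFP. Flt1 varied within groups, with 17.8% and 52.5% in the same TOM positive libraries, against 19.9% to 25.9% in TOM negative cells, and with 47.0% in AAV-Cre replicate 3, against 39.8% to 72.6% after AAV-GFP. Ly6c1 made up 70.7% and 49.2% of its pair in TOM positive replicates 1 and 3, against 53.9% to 60.9% in TOM negative cells, and 25.5% (19.0 to 32.8) in AAV-Cre replicate 3, against 50.3% to 71.3% after AAV-GFP. These shares are given as description. TOM positive replicate 2 gave none, and AAV-Cre replicates 1 and 2 gave one for Kdr alone.

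**Figure D3:**
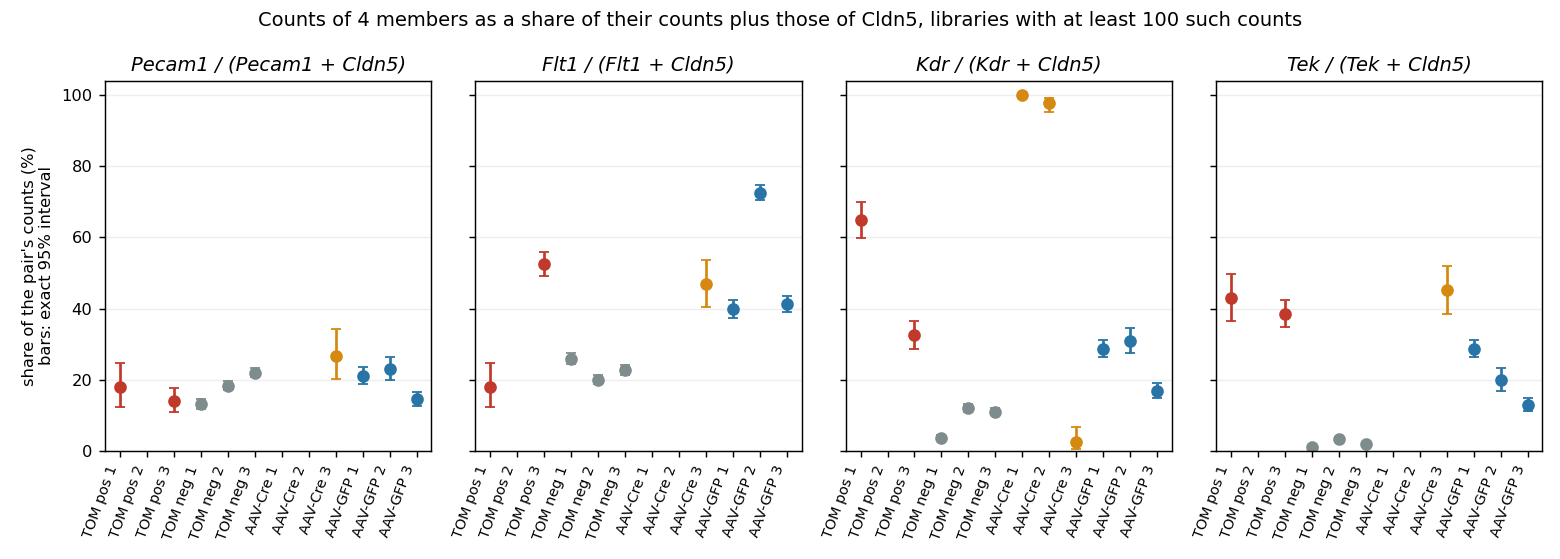
Share of Pecam1, Flt1, Kdr and Tek in the summed counts of each gene and Cldn5, per library, with exact 95% intervals. Gaps are libraries with under 100 counts for the pair. The share of Kdr is 100% and 97.9% in AAV-Cre replicates 1 and 2 and 2.38% in replicate 3.

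A further 70 genes, in 6 lists named for endothelial roles, were read from the same fits. They include ligands of the endothelial receptors and genes that other cell types also use, such as Slco2b1 and Fli1 below. Counts and sums over these lists are therefore not of endothelium alone. In TOM positive cells 26 of the 68 tested were lower and 1 was higher, beside 13.4% lower and 10.4% higher over all genes, and the groups did not overlap with TOM positive cells lower for 44 of 68, beside 25.6% of all genes, and the other way for 4, beside 20.8%. Of the 26 lower genes, 3 had 0 counts in all TOM positive libraries and 1 had a sum of 1 to 3 counts there, so these 4 reached the count filter through TOM negative cells alone. The median log2 fold change was -2.15. Without TOM negative replicate 2, 12 of these genes passed. Lower calls were made for 7 of 13 barrier transport genes, 7 of 13 other vessel wall genes, 5 of 14 receptors and phosphatases, 4 of 10 transcription factors, 2 of 6 ligands and 1 of 12 junction and adhesion genes. Among transporters, Slco2b1, an organic anion carrier that mouse microglia also make, fell by 5.05 ± 0.42 on the log2 scale (edgeR adjusted p = 0.000411). Slc3a2, the heavy chain of amino acid exchangers, fell by 1.78 ± 0.17 (0.000668). Pltp, a phospholipid transfer protein, averaged 47.9 ± 13.6 CPM in TOM positive cells and 304 ± 32.1 CPM in TOM negative cells, and Itm2a averaged 68.8 ± 57.5 and 512.7 ± 26.4 CPM in the same order (edgeR adjusted p = 0.000654 and 0.0118). The zinc finger factor Klf2, which responds to blood flow in endothelium, had 5.85, 9.92 and 15.2 CPM in TOM positive cells, against 195, 167 and 222 CPM in TOM negative cells (log2 fold change -4.23 ± 0.37, edgeR adjusted p = 0.000506). The ETS factor Fli1, which microglia use too, fell by 3.10 ± 0.30 (0.000802).

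Among receptors, Clec14a, a C-type lectin of endothelium, was at 0 in all TOM positive libraries and averaged 9.29 ± 1.22 CPM in TOM negative cells. Clec14a and Angpt2 were tested only because of their TOM negative counts. Clec14a was at least 245-fold lower (edgeR adjusted p = 0.00316), and the bound was 152 without TOM positive replicate 3. Ramp2, which pairs with the adrenomedullin receptor, fell by 1.97 ± 0.29 on the log2 scale (edgeR adjusted p = 0.00425). Of the ligands, Angpt2, an angiopoietin released by endothelium, was at 0 in each TOM positive library and at least 88.6-fold lower (edgeR adjusted p = 0.0122), with a bound of 53.2 without TOM negative replicate 3. Pgf, placental growth factor, fell by 1.62 ± 0.35 (0.0164). Cd34, a sialomucin of endothelium and blood progenitors, averaged 3.01 ± 4.11 CPM in TOM positive cells and 156 ± 12.5 CPM in TOM negative cells (edgeR adjusted p = 0.0185). The gene that rose was Mcam, an adhesion molecule of endothelium and mural cells, with 155, 109 and 116 CPM in TOM positive cells, against 33.5, 44.3 and 33.4 CPM in TOM negative cells (log2 fold change 1.78 ± 0.22, edgeR adjusted p = 0.00210). With 1 library left out, Slco2b1, Slc3a2, Pltp, Klf2, Fli1, Clec14a, Ramp2 and Mcam passed in all 6 fits, Angpt2 and Itm2a in 5, Cd34 in 3 and Pgf in 2.

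After AAV-Cre, 12 of the 67 further genes tested were lower and 0 were higher, beside 1.97% and 0.63% over all genes. Of the 12, 8 had 0 counts in all AAV-Cre libraries and 3 had 1 or 2 counts there in all, so these 11 reached the count filter through the AAV-GFP libraries alone and had to differ to be tested. Pltp was the remaining gene. The groups did not overlap with AAV-Cre lower for 40 of 67, beside 18.6% of all genes, and the other way for 2, beside 9.85%. The median log2 fold change was -2.26. Without AAV-Cre replicate 2, 3 passed, and without any 1 of the AAV-GFP libraries 0 passed in edgeR, where 23 to 28 had an unadjusted p under 0.05. DESeq2 on all 6 libraries called 21. By list, 3 of 10 transcription factors, 2 each of 13 transport genes, 13 other vessel wall genes, 14 receptors and 12 junction genes, and 1 of 5 ligands were lower. In these libraries 12 of the 70 genes had 0 counts in all 3 AAV-Cre replicates and 0 of 70 in all 3 AAV-GFP replicates. Of the 67 tested, 10 were at 0 in all AAV-Cre libraries and 0 in all AAV-GFP libraries, beside 2.78% and 0% of all genes tested. The genes at 0 included Tie1, the partner receptor of TIE2, with 16.1, 29.2 and 10.3 CPM after AAV-GFP (at least 275-fold lower, edgeR adjusted p = 0.0252), and the amino acid carrier Slc38a5, with 25.8, 13.8 and 24.8 CPM after AAV-GFP (at least 333-fold, 0.0202). Abcb1a, the P-glycoprotein efflux pump, was at least 150-fold lower, the adhesion gene Icam2 at least 133-fold, the matrix gene Mmrn2 at least 113-fold, the lymphatic growth factor Vegfc at least 83.9-fold and the guidance receptor Robo4 at least 75.6-fold (edgeR adjusted p of 0.0324 to 0.0451). Without AAV-Cre replicate 1, these 7 bounds were lower by a factor of 1.55.

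Podxl, a sialomucin, had 2, 0 and 0 counts after AAV-Cre, against 231, 234 and 184 counts after AAV-GFP (edgeR adjusted p = 0.0277). The ratio of summed counts, AAV-GFP over AAV-Cre and scaled to library totals, was 311 with an exact 95% interval of 85.7 to 2571. The transcription factors Foxf2 and Sox18 had 1 count each in the AAV-Cre group, against 501 and 322 counts in the AAV-GFP group (edgeR adjusted p = 0.0324 and 0.0360). The ligand with the next smallest p after Vegfc was Vegfb, whose log2 fold change of -1.02 ± 0.44 did not pass (edgeR adjusted p = 0.261). Pltp averaged 67.4 ± 11.7 CPM after AAV-Cre and 642 ± 249 CPM after AAV-GFP (log2 fold change -3.25 ± 0.38, edgeR adjusted p = 0.0202). Tie1 and Slc38a5 passed in 3 of 6 fits with 1 library left out, Abcb1a, Icam2, Mmrn2, Podxl and Pltp in 2, Foxf2, Sox18 and Robo4 in 1 and Vegfc in 0. Slco2b1, Cd34 and Fli1, lower in TOM positive cells, had log2 fold changes of 1.55 ± 0.47, 0.03 ± 0.45 and 0.57 ± 0.56 after AAV-Cre, and none passed (edgeR adjusted p = 0.129, 0.985 and 0.660). Mcam stood at 2.05 ± 0.49 (0.0627). These 4 genes were set side by side after their values were seen.

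The partners of the transport members were read as a separate list of 7, of which 6 were tested in each comparison. In TOM positive cells 2 were lower and 0 higher, beside 13.4% and 10.4% of all genes. Slc16a3, a lactate transporter that needs basigin, fell by 1.48 ± 0.29 on the log2 scale (edgeR adjusted p = 0.0112, lost in 1 of 6 fits with 1 library left out), and Ppib, a cyclophilin, fell by 0.95 ± 0.20 (0.0140, lost in 2 of 6). After AAV-Cre 0 of 6 passed in edgeR, beside 2.6% of all genes. Slc16a7 alone had an unadjusted p under 0.05, and it passed in DESeq2 (adjusted p = 0.0266). The smallest edgeR p-values were those of Slc16a7, at 1.86 ± 0.60 (edgeR adjusted p = 0.149), and of the cyclophilin Ppia, at -0.52 ± 0.36 (0.498).

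**Figure D4:**
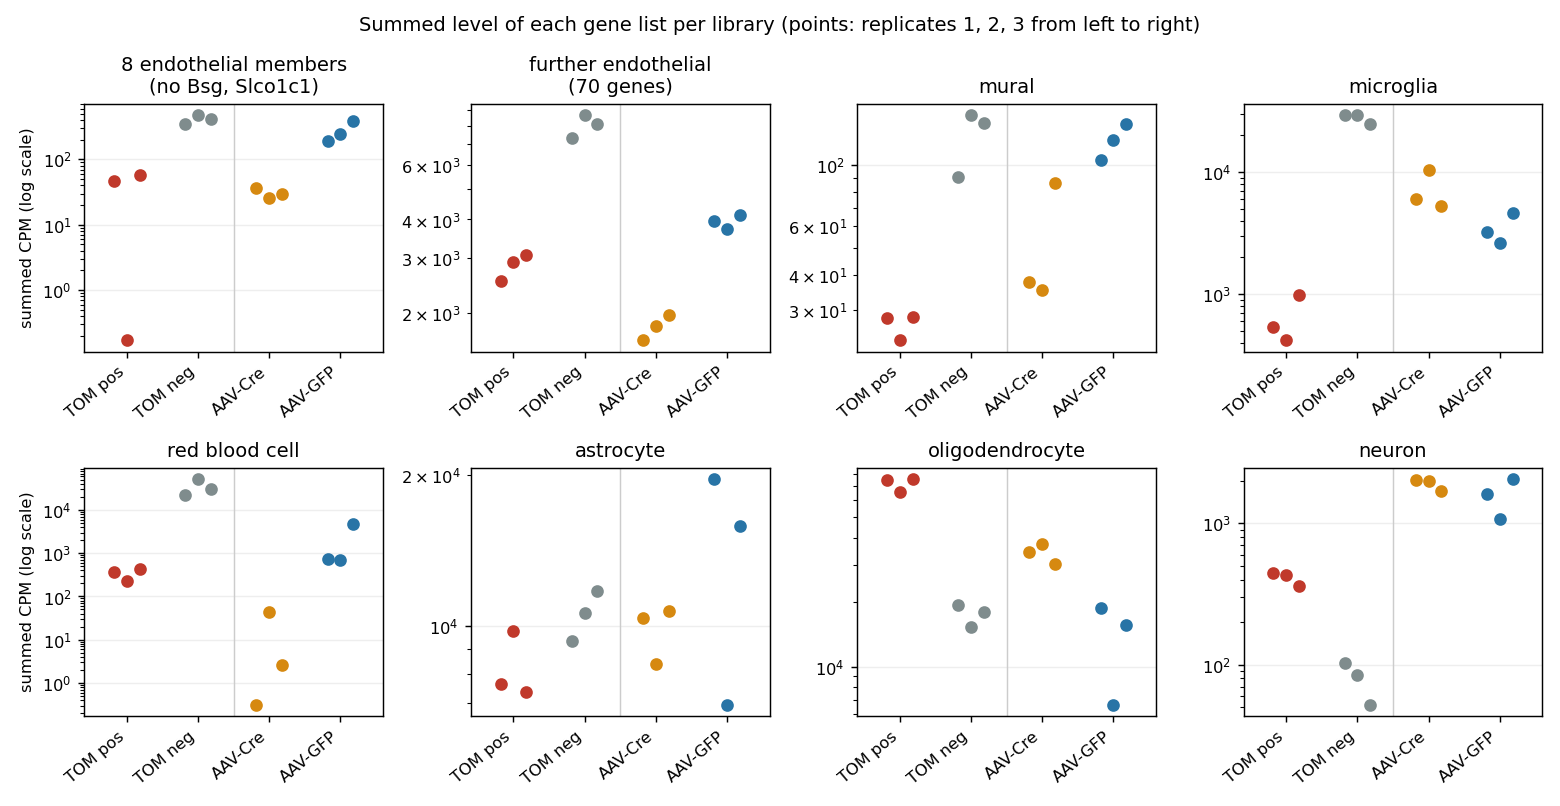
Summed CPM of the 8 members other than Bsg and Slco1c1, of the 70 further endothelial genes and of marker lists of other cell types, per library, on log axes that differ between panels. The 70 genes include some that other cell types also use. Microglial and red blood cell markers are far lower in TOM positive than in TOM negative cells, and red blood cell markers are lower after AAV-Cre.

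Markers of several other cell types moved between the same groups. The counts of markers called in the TOM comparison stand beside 13.4% lower and 10.4% higher over all genes tested. Markers at 0 in all TOM positive libraries could be tested only through TOM negative cells and had to differ to be tested. In the TOM comparison, 10 of 10 microglial markers were lower in TOM positive cells, with summed levels of 418 to 982 CPM there and 24826 to 29321 CPM in TOM negative cells. Red blood cell markers summed to 224 to 444 CPM in TOM positive cells and 22604 to 51385 CPM in TOM negative cells, with 5 of 5 lower. Mural cell markers, of pericytes and vascular smooth muscle, summed to 23.2 to 28.3 CPM in TOM positive cells and 90.8 to 152 CPM in TOM negative cells, with 4 of 8 tested lower. Of all 11 mural markers, tested or not, Kcnj8, Abcc9, Myh11 and Higd1b were at 0 in all TOM positive libraries. Beside them, 34885 of all 55809 symbols and 2% of the genes tested were at 0 there. All TOM negative counts of Myh11 came from replicate 2. Abcc9 was low in both groups, with a bound of at least 4.64-fold that fell to 2.87 without TOM positive replicate 3. Astrocyte markers summed to 7358 to 9754 CPM in TOM positive cells and 9308 to 11719 CPM in TOM negative cells, with 2 of 8 lower. Oligodendrocyte markers summed to 65379 to 75261 CPM in TOM positive cells and 15279 to 19388 CPM in TOM negative cells, with 6 of 6 higher, and neuronal markers to 363 to 449 and 52.1 to 103 CPM in the same order, with 4 of 8 higher. Perivascular macrophage and monocyte markers summed to 22.5 to 47.3 CPM in TOM positive cells and 39.1 to 52.8 CPM in TOM negative cells, with 1 of 10 lower. Of these markers, Ly6c2 was at 0 in all TOM positive libraries. Choroid plexus markers summed to 2.21 to 62.6 and 11.8 to 151 CPM in that order, with 0 of 3 passing. Neither the part of these cell types nor that of the number of genes with a count in the endothelial result was tested.

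After AAV-Cre, red blood cell markers summed to 0.312 to 42.7 CPM, against 707 to 4690 CPM after AAV-GFP, with 2 of 5 lower and Alas2 at 0 in all AAV-Cre libraries. This count and those below stand beside 1.97% lower and 0.63% higher over all genes tested. Markers at 0 in all AAV-Cre libraries could be tested only through the AAV-GFP libraries and had to differ to be tested. Mural markers summed to 35.3 to 86.0 CPM after AAV-Cre and 104 to 140 CPM after AAV-GFP, with 1 of 8 tested lower. Of all 11 mural markers, tested or not, Abcc9, Acta2, Myh11 and Higd1b were at 0 in all AAV-Cre libraries. Beside them, 36130 of all 55809 symbols and 2.78% of the genes tested were at 0 there. The bound for Abcc9 was at least 6.38-fold and fell to 2.70 without AAV-GFP replicate 2. Microglial markers summed to 5289 to 10408 CPM after AAV-Cre and 2638 to 4626 CPM after AAV-GFP, with 1 of 10 higher, so their sums stood in the opposite order to those of the endothelial members. Oligodendrocyte markers summed to 30267 to 37296 and 6618 to 18696 CPM in that order, with 1 of 6 higher. Astrocyte sums of 8390 to 10720 CPM after AAV-Cre and 6946 to 19645 CPM after AAV-GFP overlapped, with 0 of 8 passing. Neuronal sums of 1694 to 2037 CPM and 1070 to 2052 CPM overlapped too, with 0 of 8 passing. Macrophage and monocyte sums were 4.27 to 14.2 CPM after AAV-Cre and 3.19 to 17.0 CPM after AAV-GFP. Choroid plexus markers summed to 7.04 to 23.1 CPM after AAV-Cre and 52.1 to 61.7 CPM after AAV-GFP, with 1 of 3 tested lower. Folr1 and Aqp1 were at 0 in all AAV-Cre libraries, and Aqp1 in all AAV-GFP libraries too. The part of these cell types, and of the 14747 to 16988 genes with a count after AAV-Cre against 20778 to 23902 after AAV-GFP, in the endothelial result was not tested.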

How the data were processed

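RNA of cells sorted into Trizol was turned into libraries by the SMART-Seq mRNA LP method, per the labels' protocols. The deposited values are raw whole-number counts for each gene symbol. The submitters' processing notes name FastQC, Trim Galore, STAR, featureCounts and the mm10 build. In the AAV libraries, per the file headers, counting used featureCounts 2.0.1 and GENCODE vM30, an annotation of a later mouse assembly, with no strand set and without reads mapping to several places. For the TOM table these settings are not stated in the sources used here. Gene coordinates are those in the files, and none was converted. No protocol describes molecular identifiers, so intervals and bounds cover counting error only.

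The 6 libraries of a comparison were fitted together in edgeR 4.0.16 (R 4.3.3): TMM scaling, filterByExpr with a minimum count of 10, quasi-likelihood test, two-sided, Benjamini-Hochberg adjustment over all genes tested and a threshold of 0.05. SEs came from the F statistic. A group at 0 was given a floor of 3 counts over the group. No pair of replicates agreed within sampling noise, with a chi-square per degree of freedom of 44.6 or more. The alternatives were RLE factors, no scaling factors, no count filter, a replicate block, DESeq2 1.42.0, robust dispersion and leaving out each library. The fits were tested on simulated counts with the same dispersion for every gene and changes only in well-counted genes. That test does not cover members near 0 counts or with a large spread between replicates. The 50-base stretches came from GENCODE vM21 transcripts. No exonic base of a member lies in another gene of the annotation.

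The members and gene lists were chosen with earlier results of these data known. Named genes were all members, Ly6c2 and Ly6a as relatives of Ly6c1, Otp and Mc4r, and in each list of endothelial or partner genes the 2 with the smallest p in each comparison.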

Additional observations from a re-analysis of the deposited data

How the results depend on the processing

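The direction of each member's fold change held under the alternatives tried except for Kdr after AAV-Cre and Tek in TOM positive cells. In both of these cases the groups overlapped, as they also did for Kdr in TOM positive cells and Slco1c1 after AAV-Cre, which kept their sign. Kdr after AAV-Cre changed sign without a count filter (-0.0097) and with a replicate block (-1.04), and ran from -1.10 to 0.58 with 1 library left out. Tek in TOM positive cells ran from -0.26 to 1.17. Deviations of libraries with the same replicate number correlated by -0.07 to 0.02, which showed no pairing but cannot exclude it. The replicate block, over these numbers, gave 1987 genes in the TOM comparison, against 3635, with 2 members. It gave 0 genes after AAV-Cre, against 400, with 0 members and 0 further endothelial genes by edgeR, where 2013 genes, 6 members and 30 further genes had an unadjusted p under 0.05. DESeq2 gave 1531 genes, 4 members and 21 further genes after AAV-Cre. No count filter gave 712 genes there, and robust dispersion 1 member. With 1 library left out, the TOM comparison gave 1511 to 3547 genes, 1 to 7 members and 12 to 33 further genes, lowest without TOM negative replicate 2. The AAV comparison gave 0 to 296 genes, 0 to 4 members and 0 to 17 further genes. All 3 counts were 0 without AAV-GFP replicate 1 or 3, with 2609 and 2342 genes, 6 and 4 members and 25 and 23 further genes at an unadjusted p under 0.05. Without scaling factors, fold changes shifted by a median of 0.26 (TOM) and 0.16 (AAV) on the log2 scale, and 2204 genes were higher and 1532 lower in TOM positive cells, against 1589 and 2046, and 127 higher and 241 lower after AAV-Cre, against 97 and 303. The causes were not tested. Members near the floor, 3 counts or 0.0998 to 0.217 CPM in a library, are limited by depth.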
